A study of Rattus norvegicus with 8 samples.

Results

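The proteins described here hold the sarcomere, the contractile unit of striated muscle, in register. Thin actin filaments are anchored at the Z-disc, where alpha-actinins crosslink them, and thick myosin filaments are tied together at the M-band by myomesins. Myozenins bind alpha-actinin and the phosphatase calcineurin at the Z-disc, and other proteins there take part in the response of the fibre to stretch. Several of these proteins come as pairs of related genes that differ in the fibres or muscles they are known from.

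The genes were a list of 10 names (Myom1, Myom2, Actn2, Actn3, Myoz1, Myoz2, Cmya5, Ky, Csrp3 and Ankrd2), and every probe set annotated to exactly 1 of these symbols was taken. This gave 9 of the 10411 genes named by a single symbol on the array, or 10 of its 15923 probe sets, with 2 probe sets for Ky and none (0) for Ankrd2. The list was drawn up with the layer differences of these same arrays known. The layer differences of the listed genes are therefore given as a description with no test, and support nothing beyond it.

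The samples were taken from adult rats by cutting tissue with a laser out of the 2 layers of extraocular muscle, which turns the eyeball. The orbital layer faces the bony orbit and the global layer faces the eyeball, and each layer is represented by 4 arrays, called captures here. No strain, sex, treatment or genotype is named in the labels, and nothing in them ties a capture to an animal, so captures of 1 animal may be among the 8 and any p-value over captures may be too small. Titles begin with R2 for captures 1 and 2 and with R3 for captures 3 and 4 of each layer, and the meaning of this prefix is not stated. After the prefix, the titles carry GL or OL and a number, which is 1, 2, 1 and 2 for global captures 1 to 4 but 1, 2, 1 and 1 for orbital captures 1 to 4. Orbital captures 3 and 4 (R3OL1 and R3OL1.2) may therefore be repeats of 1 capture or of 1 RNA, in which case the orbital layer has 3 independent samples where n = 4 is given. The labels do not settle this. The SD of the log2 difference between these 2 arrays was 0.46 over all probe sets tested, and it was 0.43 to 0.45 between the other pairs of orbital captures. With the pair averaged as 1 sample, the layer difference of Myom2 was -4.85 ± 0.39 and that of Actn3 was -3.94 ± 0.29 (SE, n = 3 orbital and 4 global). In such tissue, fewer fibres of a type and less RNA per fibre cannot be told apart. A level is the intensity of a probe set on the scale deposited, and a difference is log2(intensity + 1) of the orbital minus the global layer, with its standard error (SE) from limma.

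The median intensity was between 59.0 and 66.4 on the 8 arrays. Muscle transcripts were bright in all captures, among them Ttn, which encodes titin, at 4165 to 9029. All 10 probe sets were bright enough to be tested. Even the lowest value, Myom2 in orbital capture 2, was 2.97 times the highest of 27 bacterial control probe sets of its array, and no value of the other 9 probe sets was under 6.92 times it.

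Of the 10 probe sets, 6 had a lower mean in the orbital layer and 4 a higher one, with a median difference of -1.04 beside 0.02 over the 9520 probe sets tested. Actn3, Cmya5, Ky, Myom2 and Myoz1 were lower in every orbital capture than in any global capture, at 6 probe sets, and Myom1 was higher in every orbital capture at 1. Actn2, Myoz2 and Csrp3 overlapped between the layers. The layers did not overlap for 14.1% of all probe sets tested, 7.31% with the orbital layer higher and 6.75% with it lower. In the fit across all probe sets 6 of the 10 were past an adjusted p of 0.05 (limma, Benjamini-Hochberg), 1 higher and 5 lower in the orbital layer, beside 7.41% of all probe sets in either direction, 3.91% higher and 3.5% lower. Because of how the genes were chosen, nothing is read from this count.

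**Figure D1:**
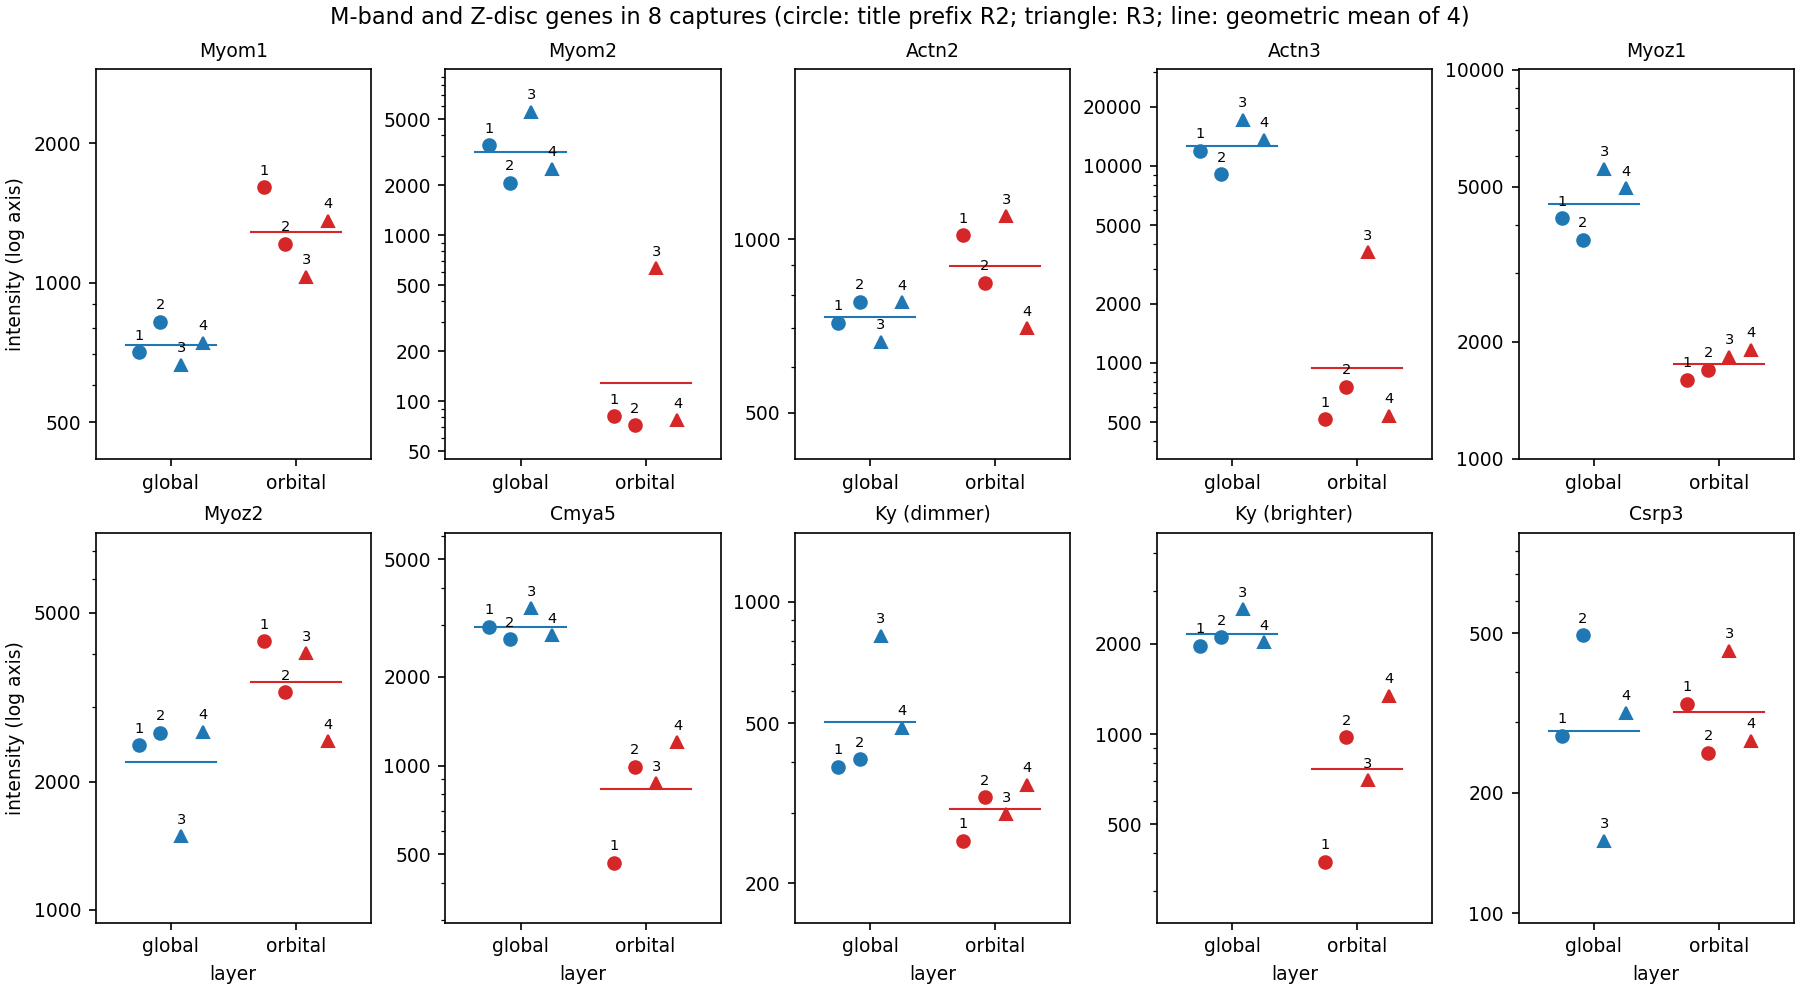
Intensity (log axis) of the 10 probe sets in the 4 global (blue) and 4 orbital (red) captures, numbered by capture, with circles for title prefix R2, triangles for R3 and a line at the geometric mean. Myom2 and Actn3 lie far lower in 3 of the 4 orbital captures than in capture 3, whose values of 631 and 3639 are still below all global captures.

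The myomesins of the M-band differed in opposite directions. Myom2, the myomesin known from fast fibres and heart, had intensities of 3487, 2064, 5547 and 2513 in global captures 1 to 4. In orbital captures 1 to 4 it had 81.2, 71.6, 630.9 and 77.1. Captures 1, 2 and 4 of the orbital layer were thus nearly alike, and capture 3 was 7.77 times the next highest while still below every global capture. The difference was -4.59 ± 0.56 (SE, n = 4 per layer), the most negative of all 9520 probe sets, and -5.35 ± 0.27 without orbital capture 3. The difference over all captures corresponds to a level 24.2-fold higher in the global layer, on the scale of log2(intensity + 1). With 16 or 64 added in place of 1 it was -4.40 and -3.95, so its size depends on the value added.

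Myom1, the myomesin found in all striated muscle, had 1605, 1212, 1030 and 1362 in the orbital captures. In the global captures it had 708, 824, 665 and 741. The layers did not overlap, and the difference of 0.81 ± 0.14 (SE, n = 4 per layer; 1.75-fold) was much smaller than that of Myom2. The lowest orbital value was that of capture 3, the capture in which Myom2 was highest.

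The alpha-actinins of the Z-disc also had mean differences of opposite sign, clear of the spread between captures for Actn3 alone. Actn3, which in adult muscle is made in fast fibres, had 11929, 9082, 17175 and 13544 in the global captures. In the orbital captures it had 519, 758, 3639 and 538. The layers did not overlap, and orbital capture 3 again stood above the other orbital captures, at 4.80 times the next. The difference was -3.75 ± 0.48 (SE, n = 4 per layer; 13.4-fold higher in the global layer), the fourth most negative of all probe sets tested, and -4.40 ± 0.21 without orbital capture 3.

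Actn2, the alpha-actinin of all striated fibres, had 1015, 840, 1095 and 700.1 in the orbital captures and 716, 778, 664 and 777 in the global captures. Orbital capture 4 lay within the global range. The difference of 0.30 ± 0.15 (SE, n = 4 per layer) had a 95% interval of -0.02 to 0.61.

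The 300 bases around the start site of both alpha-actinins are shown because the 2 genes of the pair differ in their layer values, from 250 before to 50 after the start in the RefSeq table (GRCr8). Promoters were found there for 7 of the 9 genes, and for Myom2 and Csrp3 none is shown. Capitals mark matches on either strand to the E-box (CANNTG) and to the MEF2 consensus. The E-box is a site of basic helix-loop-helix factors in general, not of the myogenic ones alone. Actn2 is at chr17:62834805-62835104 on the plus strand and Actn3 at chr1:211604352-211604651 on the minus strand.
Actn2: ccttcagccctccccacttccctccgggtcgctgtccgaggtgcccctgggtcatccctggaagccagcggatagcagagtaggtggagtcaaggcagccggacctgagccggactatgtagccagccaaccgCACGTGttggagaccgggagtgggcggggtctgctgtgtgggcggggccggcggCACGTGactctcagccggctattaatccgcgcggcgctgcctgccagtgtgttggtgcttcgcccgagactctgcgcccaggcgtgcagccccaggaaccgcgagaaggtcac
Actn3: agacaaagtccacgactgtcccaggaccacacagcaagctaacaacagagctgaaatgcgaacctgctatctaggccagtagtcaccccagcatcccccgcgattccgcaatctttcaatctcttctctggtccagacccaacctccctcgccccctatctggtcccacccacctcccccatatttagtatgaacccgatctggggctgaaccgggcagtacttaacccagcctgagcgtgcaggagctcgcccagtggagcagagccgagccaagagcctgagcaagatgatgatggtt
The Actn2 window held 2 E-box matches, beginning at -117 and -63 from the start, and the Actn3 window held 0 of either motif. An E-box match was present in 72.1% of the 33469 windows of this length in the table and in 5 of these 7. Such a match describes letters only, and its absence here says nothing of the factor.

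The means of the myozenins differed in opposite directions too. Myoz1, the form of fast fibres, had 1596, 1694, 1832 and 1907 in the orbital captures and 4159, 3652, 5574 and 4958 in the global captures. The layers were well apart and the orbital captures close together, with a coefficient of variation of 7.92%, and capture 3 did not stand out. The difference was -1.37 ± 0.15 (SE, n = 4 per layer; 2.58-fold higher in the global layer).

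Myoz2, the form of slow fibres and heart, had 4288, 3255, 4016 and 2493 in the orbital captures. In the global captures it had 2438, 2609, 1491 and 2626. Orbital captures 1, 2 and 3 lay above all global captures and capture 4 lay within them. The difference was 0.62 ± 0.21 (SE, n = 4 per layer), with a 95% interval of 0.17 to 1.07. This interval is not adjusted for the number of probe sets. Myoz2 was not past the adjusted threshold in the fit with layer as the only term.

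The promoter windows of the myozenins are shown because they are the 2 of the 7 with a MEF2 match, a site bound by MEF2 factors in muscle. Myoz1 is at chr15:3693363-3693662 on the plus strand and Myoz2 at chr2:213852729-213853028 on the minus strand, with capitals as above.
Myoz1: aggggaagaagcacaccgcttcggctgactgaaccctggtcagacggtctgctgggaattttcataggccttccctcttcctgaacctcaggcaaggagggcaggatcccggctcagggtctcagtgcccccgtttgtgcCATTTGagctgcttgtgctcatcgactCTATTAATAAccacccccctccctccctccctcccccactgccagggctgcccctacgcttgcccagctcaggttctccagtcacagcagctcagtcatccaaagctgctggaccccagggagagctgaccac
Myoz2: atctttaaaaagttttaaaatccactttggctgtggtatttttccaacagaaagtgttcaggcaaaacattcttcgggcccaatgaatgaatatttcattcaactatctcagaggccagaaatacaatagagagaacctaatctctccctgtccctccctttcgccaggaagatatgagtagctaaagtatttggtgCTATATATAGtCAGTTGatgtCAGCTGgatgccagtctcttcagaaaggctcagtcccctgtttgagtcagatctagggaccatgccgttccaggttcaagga
The MEF2 match began at -83 in Myoz1 and at -53 in Myoz2. Such a match was present in 3.29% of the 33469 windows. Myoz1 also held 1 E-box match and Myoz2 held 2. The MEF2 match was thus shared by the myozenin with a lower orbital level and the one with a higher mean there.

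Cmya5 and Ky were lower in the orbital layer and had the most alike pattern of all pairs of these probe sets. Cmya5 encodes myospryn, a large protein of the Z-disc region that binds alpha-actinin and desmin. It had 469, 990, 870 and 1197 in the orbital captures and 2956, 2685, 3416 and 2766 in the global captures. Orbital capture 1 was lowest, and no orbital capture reached a global one. The difference was -1.82 ± 0.23 (SE, n = 4 per layer; 3.53-fold higher in the global layer).

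Ky, a protein of the Z-disc that binds filamin C and whose loss causes muscle and spine disease in mice, was read by 2 probe sets. The brighter one had 376, 975, 701 and 1343 in the orbital captures and 1971, 2100, 2602 and 2023 in the global captures. The dimmer one had 255, 327, 297 and 352 in the orbital captures and 389.9, 407, 825 and 488 in the global captures. Neither overlapped between layers, and on both probe sets orbital capture 1 was the lowest and capture 4 the highest of its layer. The differences were -1.49 ± 0.29 and -0.72 ± 0.21 (SE, n = 4 per layer), so the probe sets had the same sign and disagreed in size. Cmya5 and the brighter Ky probe set differed by a root mean square of 0.23 in log2 over the 8 captures, each centred on its own mean, whereas the 2 Ky probe sets differed from each other by 0.57.

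Csrp3, the muscle LIM protein of the Z-disc known from slow fibres and heart, had 333, 252, 451 and 269 in the orbital captures. In the global captures it had 277, 494, 152 and 316. The lowest and the highest of the 8 values were both global, and the layers overlapped. The difference was 0.16 ± 0.29 (SE, n = 4 per layer), with a 95% interval of -0.47 to 0.79. It was -0.35 among captures with prefix R2 and 0.67 among those with R3. Ankrd2, a stretch-responsive ankyrin repeat protein, had no value.

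**Figure D2:**
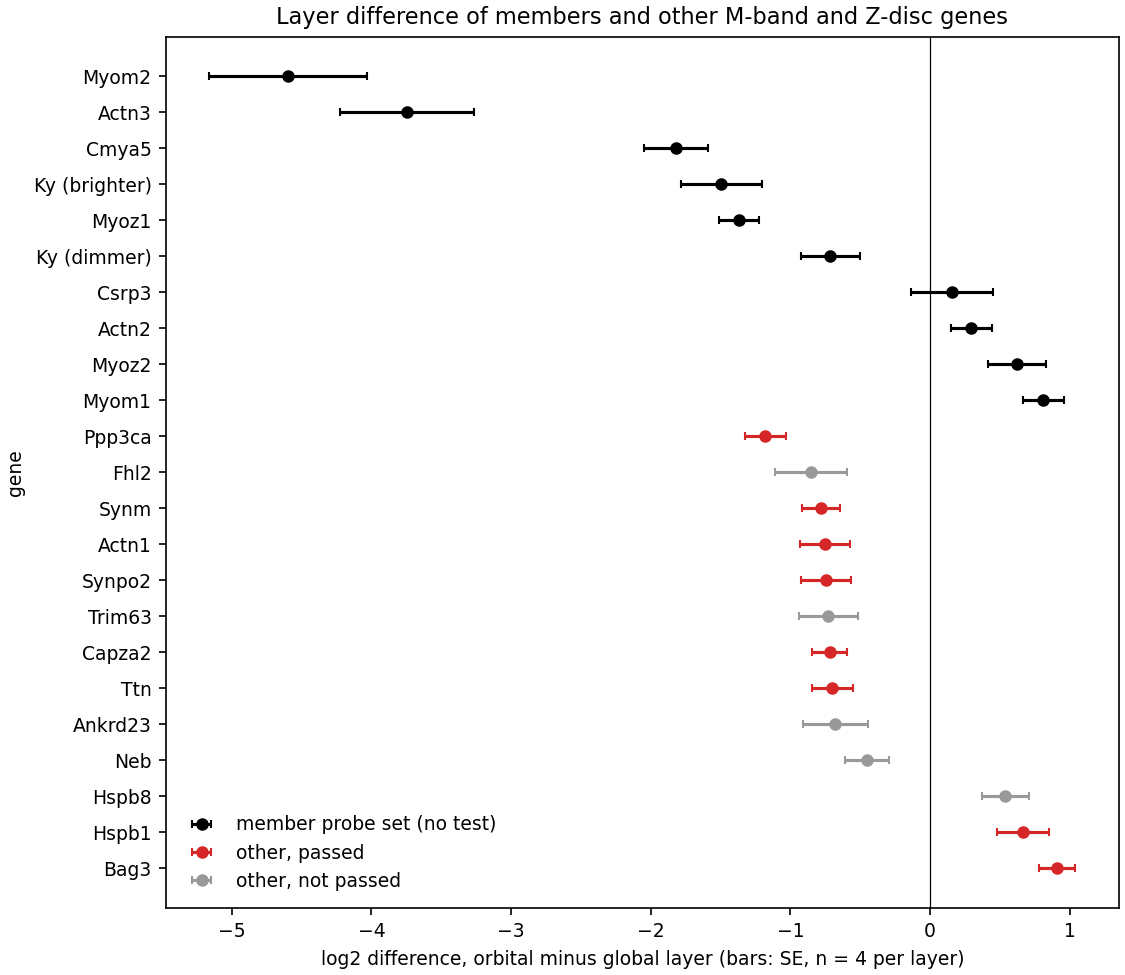
Log2 difference of the orbital minus the global layer with its SE (n = 4 per layer) for the 10 probe sets (black) and for 13 other genes of the M-band and Z-disc (red, adjusted p under 0.05 in limma; grey, not passed). Myom2 and Actn3 lie at -4.59 and -3.75, and the other genes between -1.18 and 0.91.

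Within each layer the probe sets also varied. Each capture enters the layer difference by which probe sets are called lower or higher here. An order within a layer is therefore not independent of that split. In global capture 3 all 6 probe sets that were lower in the orbital layer (Myom2, Actn3, Myoz1, Cmya5 and both of Ky) had their highest global value. In the same capture the other 4 (Myom1, Actn2, Myoz2 and Csrp3) had their lowest. Orbital capture 1 had the lowest orbital value of Actn3, Myoz1, Cmya5 and both Ky probe sets and the highest of Myom1 and Myoz2. These are orders within 4 captures, with no test. Of 328 other probe sets that passed as lower in the orbital layer, 246 (75%) also lay above the mean of the other global captures in global capture 3, and of 371 that passed as higher, 118 did.

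Fibre genes as a whole also varied between the captures of a layer. In global capture 3, 10 of 11 tested genes of a fast fibre list lay above the mean of the other 3 global captures, with a median deviation of 0.48 in log2. Of 12 genes of a slow and cardiac list 0 lay above it, with a median of -0.87. Over all probe sets tested the median deviation of that capture was -0.002. Other captures were one-sided for 1 of the lists. Of the 11 fast genes, 10 lay above in orbital capture 4 (median 0.39), and 1 did in both orbital capture 1 (-0.12) and global capture 2 (-0.39). Of the 12 slow and cardiac genes, 10 lay above in orbital capture 3 (0.08), while global capture 4 (0.28) had all 12 above. The means against which the other global captures are set include global capture 3.

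Orbital capture 3 differed from this pattern. It lay above the mean of the other orbital captures by 3.03 for Myom2 and 2.61 for Actn3, but by 0.08 for both Myoz1 and Cmya5 and by -0.17 and -0.06 for the Ky probe sets. The spread of Myom2 and Actn3 among orbital captures (SD of log2 values 1.52 and 1.33, n = 4) was larger than for 99.9% of all probe sets tested, whose median was 0.23. Of the 328 other probe sets that were lower in the orbital layer, 159 lay above the mean of the other orbital captures in capture 3, with a median deviation of -0.01, so about as many of them lay below as above. Of the fibre lists, 8 of 11 fast genes (median 0.13) and 10 of 12 slow and cardiac genes (median 0.08) lay above that mean in capture 3. The Gapdh control probe set at the 3′ end divided by that at the 5′ end, a measure of RNA shortening, was 12.9 in orbital capture 3 and 5.35 to 8.64 in the other 7 captures, and its part in these values was not tested.

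**Figure D3:**
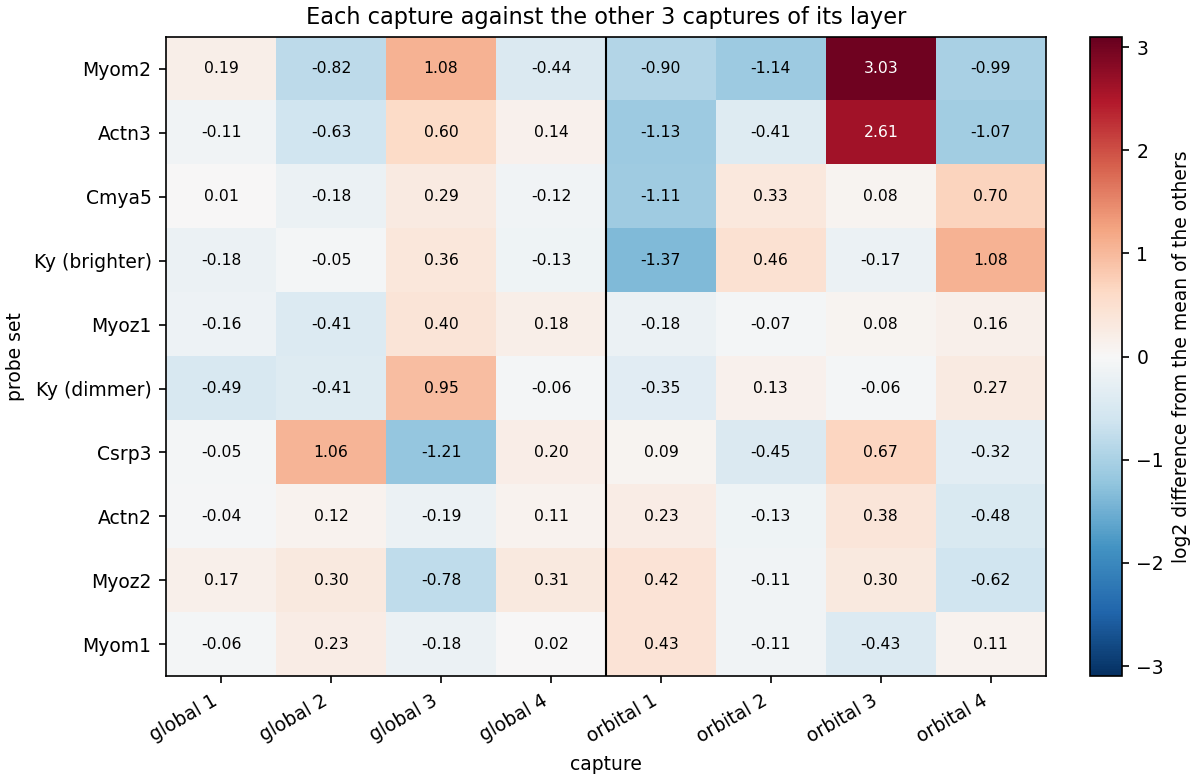
Log2 difference of each capture from the mean of the other 3 captures of its layer, for the 10 probe sets ordered by their layer difference. Global capture 3 is above the others in the upper 6 rows and below them in the lower 4, and orbital capture 3 stands out for Myom2 (3.03) and Actn3 (2.61).

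The difference between title prefixes, adjusted for layer, was tested for all probe sets, since the genes were not chosen on it. None (0) of the 10 probe sets passed (limma, adjusted p 0.634 to 0.951), and 2 had an unadjusted p under 0.05. These were Myoz1, higher in R3 by 0.31 ± 0.11 (SE, n = 4 per prefix; limma adjusted p = 0.634), and the dimmer Ky probe set, higher by 0.42 ± 0.18 (limma adjusted p = 0.687). All 6 probe sets that were lower in the orbital layer had a higher mean in R3, and the other 4 a lower one, with the largest size for Myom2 (1.0 ± 0.51, SE, n = 4 per prefix; limma adjusted p = 0.718). Without orbital capture 3, itself an R3 capture, the Myom2 difference was 0.29 ± 0.27 and that of Actn3 0.24 ± 0.20, against 0.85 ± 0.43 with it. Global capture 3, the other R3 capture that stood apart within its layer, had the same order of these 6 and 4 probe sets. Without it 6 of the 6 were still higher and 3 of the 4 lower, and 0 of the 10 had an unadjusted p under 0.05. With orbital captures 3 and 4 averaged 4 of the 10 had one, and none (0) passed (lowest limma adjusted p = 0.533). Over all probe sets 1 of 9520 passed (0.0105%), and 681 had an unadjusted p under 0.05. The cre hybridisation control read 12427 to 17315 in the R3 captures and 8732 to 11337 in the R2 captures, and its part in these differences was not tested.

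The layer difference itself was then compared between the prefixes by an interaction term. It passed for 0 of the 10 probe sets and for 0 of 9520 (0%) in limma, with 0 and 290 at an unadjusted p under 0.05. The smallest unadjusted p among the 10 was 0.0881, for Csrp3, whose layer difference was 1.02 ± 0.54 (SE) higher in R3 (limma adjusted p = 0.9999). With 2 captures per layer and prefix these intervals are wide. For Myom2 the layer difference was -5.12 in R2 and -4.07 in R3, and for Actn3 it was -4.05 and -3.45.

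**Figure D4:**
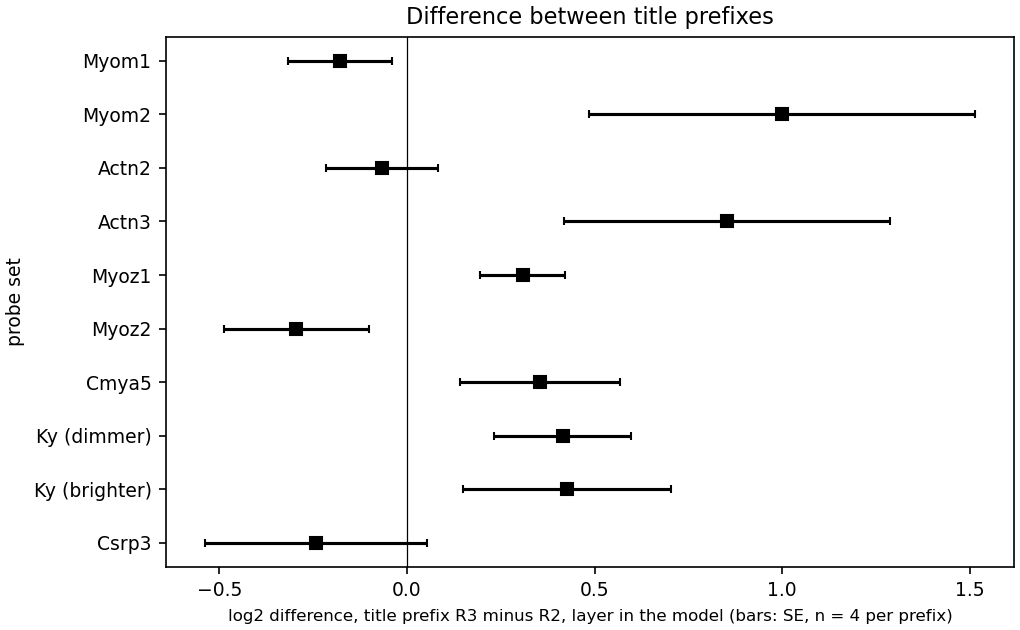
Log2 difference of title prefix R3 minus R2, with layer in the model, and its SE (n = 4 per prefix) for the 10 probe sets. Points range from -0.29 for Myoz2 to 1.0 for Myom2, and none (0) passed the adjustment.

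The genes outside the list whose pattern over the 8 captures was most like that of Myom2 were Mybpc2, Dhrs7c and Pvalb. Their root mean square difference from it was 0.80, 0.82 and 1.06 in log2, where the median over all named probe sets was 2.53. Mybpc2, the fast myosin-binding protein C, had 366, 553, 1160 and 536 in the orbital captures, also highest in capture 3. Actn3 was closer than any of these, at 0.53. Most like Myom1 were Csgalnact2, Extl1 and Gpx3, at 0.07, 0.11 and 0.12, where the median was 0.51.

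Other genes of the M-band, the Z-disc and the stress response of the fibre mostly did not pass, and more of those that did were lower in the orbital layer. Of 54 such genes outside the list, 42 were tested by their brightest probe set, and 6 fell, 2 rose and 34 did not pass, with a median difference of -0.15 beside 0.02 over all genes. Counting each gene once, 7.68% of 7163 genes passed, 3.59% lower and 4.09% higher. These lists were also chosen with earlier results of these data known, so the counts are a description and support nothing beyond it. The p-values below are too small if captures share an animal.

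Among 8 tested M-band and sarcomere cytoskeleton genes, 1 fell and 0 rose. This was Ttn, the giant protein that spans from Z-disc to M-band, with 5331, 4165, 5182 and 5800.4 in the orbital and 8012, 7148, 9028 and 9020 in the global captures. The layers did not overlap (-0.70 ± 0.15, SE, n = 4 per layer; limma adjusted p = 0.00980), and the call was lost without the filter on dim probe sets (limma adjusted p = 0.0604). Trim63, a ubiquitin ligase that binds titin at the M-band, differed by -0.73 (limma adjusted p = 0.0538) and passed with the title prefix as a block (0.0237). Fhl2, a LIM protein, differed by -0.85, and Neb, the nebulin of the thin filament, by -0.45, both without passing. Fhl2 passed with orbital captures 3 and 4 averaged (limma adjusted p = 0.0254).

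Of 28 tested Z-disc genes, 5 fell and 1 rose. Ppp3ca, a catalytic subunit of the calcineurin that myozenins bind, had 413, 395, 449 and 502 in the orbital and 986, 822, 1278 and 936 in the global captures. Its difference was -1.18 ± 0.15 (SE, n = 4 per layer; limma adjusted p = 0.000360), and a second probe set gave -1.83. Bag3, a co-chaperone of Z-disc turnover, was the 1 that rose, from 338, 394, 318 and 286 in the global to 669.6, 644, 632 and 553 in the orbital captures (0.91 ± 0.13, limma adjusted p = 0.00104).

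Synm, the intermediate filament protein synemin, fell by 0.78 on the log2 scale and Capza2, a capping protein of the thin filament, by 0.72 (limma adjusted p = 0.00317 and 0.00357). Synpo2 and Actn1, named after their values were seen as the others that fell, differed by -0.75 each (limma adjusted p = 0.0215 and 0.0219). The Synpo2 call was lost without global capture 1, 3 or 4, and the Actn1 call without orbital capture 1 or 4 or global capture 2 (limma adjusted p 0.0517 to 0.0671). The Synpo2 call was also lost in the fit without an intensity trend (limma adjusted p = 0.0557). A second Synpo2 probe set gave -0.72 without passing (limma adjusted p = 0.122). Actn1 is an alpha-actinin of non-muscle and smooth muscle cells. The summed intensity of 8 smooth muscle and pericyte genes was 705 to 1077 in the orbital and 1138 to 1280.1 in the global captures, with 1 of 6 tested lower, and its part in the Actn1 difference was not tested. All 4 alpha-actinins were measured, and Actn4 differed by 0.18 without passing.

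Of 9 tested genes of the muscle ankyrin repeat and stress-sensing list, 1 rose and 0 fell. Hspb1, a small heat shock protein, had 3516, 2398, 3700.4 and 2102 in the orbital and 1607, 1597, 1812 and 2225 in the global captures (0.67 ± 0.19, limma adjusted p = 0.0496). Orbital capture 4 lay within the global range. The call was lost without any 1 of orbital captures 1 and 3 and global captures 1, 2 and 3 (limma adjusted p 0.0973 to 0.142) and with the title prefix as a block (0.0512). Hspb8 differed by 0.54 and Ankrd23, a relative of Ankrd2, by -0.68, both without passing (limma adjusted p = 0.0696 and 0.103).

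Fibre genes outside the structural list did not all follow the order of Myom2 and Actn3. Of 11 fast fibre genes tested 4 fell and 0 rose, with a median of -0.55, and of 12 slow and cardiac genes 5 rose and 4 fell, with a median of 0.29. Summed levels of the other cell-type lists overlapped between the layers. They were 5448 to 8314 in the orbital and 4086 to 7342 in the global captures for 9 fibroblast and tendon genes, 937 to 1313 and 894 to 1042 for 5 endothelial genes, 2453 to 4769.7 and 1306 to 4561 for 6 Schwann cell and nerve genes, and 258 to 497 and 357 to 859.6 for 5 adipocyte genes, of which Lep was under the bacterial controls in all captures. For 7 blood and macrophage genes they were 1312 to 2059 and 1295 to 3122, and for 5 photoreceptor genes 530.1 to 1902 and 164 to 1126. Tested were 9 fibroblast and tendon, 5 endothelial, 4 Schwann cell and nerve, 2 adipocyte, 7 blood and macrophage and 4 photoreceptor genes. Of the genes tested in these 6 lists, 1 fibroblast and tendon, 1 endothelial and 1 Schwann cell and nerve gene rose and 0 fell. Over all genes 4.09% were higher and 3.59% lower.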

How the data were processed

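Both layers were captured by laser, and the RNA went through T7 amplification before hybridisation to the Affymetrix RAE230A array, per the labels. The authors deposited linear intensities, 1 for every probe set of every array. From the values they had scaled each array, since the 2% trimmed means differed by at most 0.00389%. The software that summarised the probes is not given in the sources used here. A scaling to one mean makes a level depend on what else was bright on that array.

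The source named in the labels gave the layer of each capture, with 4 in each. Capture numbers follow accession order and pair no samples, and the numbers in the titles were checked for pairing. Of 15923 probe sets, 57 controls were left out. The 9520 of the other 15866 that reached the 40th percentile of mean log2 values, which is an intensity of 39.4, were tested with lmFit and eBayes with an intensity trend (limma 3.58.1, R 4.3.3) on log2(intensity + 1). Layer was the only term, with Benjamini-Hochberg adjustment and a threshold of 0.05. The title prefix was tested with layer in the model, and the interaction with both. Gene names are those of the array's annotation as given with the platform and may be outdated: 12783 probe sets had 1 symbol, 312 several and 2771 none. The members and lists were chosen with earlier results of these data known. Named were all members and up to 4 genes with the smallest p in each M-band, Z-disc and stress-sensing list. Also named were the 3 genes most alike to the members with the most negative and most positive difference. The fibre lists are covered by counts, with the slow and cardiac genes that passed named. Promoter sequences are those of RefSeq (GRCr8). The procedure was tested on simulated data. Alternatives were quantile normalization, pseudocounts of 16 and 64, no filter and one at the 60th percentile, eBayes without trend or robust, the prefix as a block, each prefix alone, orbital captures 3 and 4 averaged, and each capture left out. Leaving out orbital captures 3 and 4 together, the title number as a block, and the averaging for the prefix and interaction fits were added after seeing the data. The number of arrays limits the precision.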

Additional observations from a re-analysis of the deposited data

Results flagged for a closer look

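Among 46 groups of 4 captures examined (20 of them of the listed genes), 3 held a capture far from the other 3, where chance alone flags about 1 in 20. Orbital capture 3 was far above the others for Myom2 (630.9 against at most 81.2), with a gap of 0.983 of the group's range. The same capture was far above the others for Actn3 (3639 against at most 758, a gap of 0.923 of the range). Global capture 3 was below the others for Myoz2 (1491 against at least 2438, a gap of 0.834 of the range).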

How the results depend on the processing

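Of the 10 member probe sets, 9 kept the sign of their difference under all 21 alternatives. The filter, eBayes and prefix block settings leave each difference as it is, so they could not change a sign. No member moved by more than the spread between captures. Leaving out 1 capture cannot produce such a move, because the spread includes that capture, so little is read from this. Csrp3 was negative without orbital capture 3 (-0.01), without global capture 3 (-0.14) and with prefix R2 alone (-0.35). The count over all probe sets was 705. It was 461 to 725 on leaving out 1 capture, with the lowest value without global capture 3. It was 106 with prefix R2 alone, 170 with prefix R3 alone and 363 without orbital captures 3 and 4. Of the other M-band and Z-disc genes 8 passed, 6 to 10 on leaving out 1 capture, 1 with prefix R2 alone and 2 with prefix R3 alone. These 2 prefix settings hold 2 captures per layer, so fewer samples enter. With the prefix as a replicate block 8 of those genes passed, with the Hspb1 call lost and the Trim63 call gained. The count for the title prefix was 1 under all 16 alternatives, and that for the interaction was 0 to 1, with 1 without global capture 4. Titles share numbers across layers within a prefix, giving 4 pairs. The deviations of these pairs from their layer means correlated at 0.04 to 0.11 across probe sets, and those of the other pairs at -0.13 to 0.04. Of 7 captures with a partner, 6 correlated best with one of their own number, a hint from the data. The lowest correlation of a pair of the same number (0.035) was under the highest of the other pairs (0.045). It was that of orbital capture 4, the array that may be a repeat, with global capture 3. The remaining pairs of the same number, at 0.086, 0.095 and 0.111, lay above all other pairs. Whether the numbers pair the samples is thus not settled, and the main fit does not pair them. With the title number as a replicate block 646 probe sets passed, and 11 of the other M-band and Z-disc genes did. In that fit Myoz2 (0.77 ± 0.20, SE) and the dimmer Ky probe set (-0.82 ± 0.20) were also past the threshold, unlike in the main fit. Over the 21 alternatives they were past it in 2 and 5. Myom1 and the brighter Ky probe set were past it in 19, all but each prefix alone.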
